A study of Caenorhabditis elegans with 12 samples.

Results

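Strains of *Caenorhabditis elegans* that differ in a mutation upstream of the coding sequence of *lin-22* were compared, *lin-22(ot269)* set against *lin-22(icb38)*. The comparison used 6 of the 12 libraries of the series, 3 per strain, which were taken by their strain labels and not by any measured value. Each library was made from polyadenylated RNA of whole larvae at the third larval stage (L3), 31 hr after hatching. The *lin-22(ot269)* strain (OH4271) carries a C-to-T change at a base several kilobases upstream of the *lin-22* start codon, together with the transgene *vtIs1* on chromosome V, a GFP marker of dopaminergic neurons driven by the *dat-1* promoter and injected with a dominant *rol-6* allele. The *lin-22(icb38)* strain (MBA81) carries a deletion of upstream sequence, with its *lin-22* side 2371 bp from the start codon, that removes part of the last exon of the neighbouring gene *vrp-1* (Y54G2A.3) and holds inserted sequence of *mca-3*, a plasma membrane calcium pump gene. It also carries *wIs51* on chromosome V, a GFP marker of seam cells injected with a functional copy of *unc-119*. The base changed in *lin-22(ot269)* lies in the stretch that is deleted in *lin-22(icb38)*, so that both alleles affect sequence of the same distal region. The titles of the *lin-22(icb38)* libraries read SP5 where their strain label reads MBA81, and both were taken as the same strain. The other 6 libraries came from *lin-22(ot267)* (OH4265), which has a premature stop codon in *lin-22* and carries *vtIs1*, and from JR667, which has wild-type *lin-22*, carries *wIs51* and has a Tc1 transposon insertion in its own *unc-119* gene. The labels and the methods do not say whether the 3 libraries of a strain came from separate cultures, so the p-values given here measure the spread between libraries, which may be technical. These strains are called *ot269*, *icb38* and *ot267* below. The strains of the upstream alleles differ in the transgene as well, so the allele and the marker background cannot be told apart. The study recovered *icb38* by mutagenesis of a strain with *wIs51* and backcrossed it. It describes other *lin-22* alleles as made by genome editing or recovered from independent mutagenesis. Other sequence differences between the strains may thus accompany each allele, and they cannot be told apart from it either. The difference of *ot267* from JR667 has the same change of marker and shares no library with the first comparison, so its values are given beside those of the upstream alleles. That pair also differs in *lin-22* itself, a stop codon against the wild type, and there too *lin-22* and the marker cannot be told apart. Following the marker or the transgene therefore describes values below and names no cause.

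*lin-22* encodes a basic helix-loop-helix repressor related to the Hairy and Enhancer of split proteins, a family that in many animals keeps cells from adopting a neural fate. Seam cells are the stem cell-like cells of the lateral epidermis. They divide asymmetrically at each larval stage, so that usually one daughter fuses with the surrounding epidermis and the other remains a seam cell, and Wnt signalling sets the polarity of these divisions. In the wild type one posterior seam cell of the V lineage makes the postdeirid, a group of cells that includes the dopaminergic PDE neuron, and loss of *lin-22* lets more anterior V cells make it as well. Sequences far upstream of a start codon can act as enhancers, which set where and how strongly a gene is transcribed.

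Within the deleted stretch lies a segment that is conserved among *Caenorhabditis* species, named conserved region 1 (CR1), which the study amplified on its own to build a reporter. The annealing parts of the 2 primers for that segment, on chromosome IV, are shown because they are the ends of the conserved sequence that *icb38* lacks; they are written 5′ to 3′ without the added restriction sites, and the second is on the opposite strand.
lin-22 CR1 RE F: ccccccgtatgtcccaaaaca
lin-22 CR1 RE R: aattcgttactactccaaaag

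The 6 libraries held between 57388974 and 78920246 counts over all transcripts. Replicate libraries differed by far more than counting noise, with a chi-square of at least 13.9 per entry between any pair of the 12 libraries within a strain, and all were treated as separate. On principal components, ot267 replicate 3 lay far from the other libraries of its strain; without it 4055 transcripts were called between *ot269* and *icb38* and 854 between *ot267* and JR667. The marker lists were those of whole larvae in all 12 libraries: neuronal, muscle, intestinal, pharyngeal, epidermal and germline genes were all present, and their levels are given with the gene groups below. Values per library are counts normalised by the library's size factor and are called normalised counts. Fold changes are on the log2 scale, *ot269* minus *icb38*, so that 1 is a 2-fold higher level in *ot269*; they are given with the standard error of the fit. Adjusted p-values come from the quasi-likelihood test of edgeR, adjusted by the Benjamini-Hochberg method over all 19696 entries tested, and a transcript was called higher or lower at or under 0.1.

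The first question was whether the alleles leave *lin-22* itself at different levels. *lin-22* (Y54G2A.1) had 167, 158 and 101 normalised counts in the *ot269* libraries, against 270.0, 107 and 198 in the *icb38* libraries. The ranges overlapped and the log2 fold change of -0.44 ± 0.28 did not pass the test (adjusted p = 0.353). Leaving out 1 of the 6 libraries gave log2 fold changes of -0.72 to -0.11, and without icb38 replicate 2 the value of -0.72 passed the threshold (adjusted p = 0.0822). The same transcript had 356, 336 and 293 in *ot267* and 342, 251 and 267 in JR667. Every *ot269* library was therefore below every JR667 library, whereas the highest *icb38* library was above the lowest of JR667. Set against JR667, the log2 fold change was -1.01 for *ot269* (adjusted p = 0.0207) and -0.57 for *icb38* (adjusted p = 0.207). These values share the JR667 libraries, and the alleles are compared only by the test between them. By in situ hybridization the study detected no *lin-22* RNA in the seam of *icb38* and a decrease in that of *ot269*. It also found stronger signal in the *icb38* intestine. Counts of whole larvae mix these tissues, so they do not rank the alleles by their level in the seam.

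*vrp-1*, the neighbour in which the deletion ends, was low in both upstream alleles. It is listed with 2 transcripts that share reads. The first, Y54G2A.3a, had 59.5, 74.3 and 113 normalised counts in *ot269*, against 65.3, 28.6 and 38.9 in *icb38*, and 220.5, 452 and 197 in *ot267* with 206, 323 and 519 in JR667. All 6 libraries of the upstream alleles lay below all 6 of the strains without an upstream mutation. Against JR667 the log2 fold change was -2.08 in *ot269* (adjusted p = 0.00254) and -2.96 in *icb38* (adjusted p = 7.57e-04); both values share the JR667 libraries. Between the upstream alleles, Y54G2A.3a did not pass the test (log2 fold change 0.88 ± 0.43, adjusted p = 0.212). The second transcript, Y54G2A.3b, had 32.96, 29.9 and 49.4 in *ot269* and 17.5, 13.1 and 6.81 in *icb38*, with a log2 fold change of 1.58 ± 0.51 (adjusted p = 0.0547) that no longer passed without ot269 replicate 3, icb38 replicate 2 or icb38 replicate 3 (adjusted p up to 0.183). *ndnf-1*, which follows *lin-22* in gene order, did not differ between the alleles beyond the spread between libraries (log2 fold change -0.31 ± 0.23, adjusted p = 0.422). *mca-3*, the source of the inserted sequence, had 13628, 13079 and 13255 normalised counts for transcript Y67D8C.10b in *ot269*, against 19581, 16568 and 15057 in *icb38*. Its log2 fold change of -0.36 ± 0.13 (adjusted p = 0.0956) was lost when any of the ot269 libraries, icb38 replicate 1 or icb38 replicate 2 was left out (adjusted p up to 0.281).

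Clone Y54G2A, the sequenced genomic segment from which *lin-22* and its neighbours take their identifiers, held 44 tested genes, of which 10 were higher and 2 lower in *ot269*, against 10.5% higher and 8.44% lower over all 16110 genes. Among the larger differences were those of C-type lectins, Y54G2A.9 and Y54G2A.48. *clec-82* (Y54G2A.8a) had 423, 246 and 247 normalised counts in *ot269* and 41.9, 2.38 and 42.8 in *icb38*, a log2 fold change of 3.36 ± 0.59 (adjusted p = 0.00178). Y54G2A.9 had 1331, 1316 and 1311 in *ot269* and 331, 261 and 293 in *icb38*. *clec-80* (Y54G2A.39) had 1489.6, 1376 and 1357 in *ot269* and 529, 436 and 446 in *icb38*. The libraries of the alleles did not overlap for any of these 3 genes, and the log2 fold changes were 2.16 for Y54G2A.9 and 1.58 for *clec-80*. In *ot267* against JR667, Y54G2A.9 (0.65, adjusted p = 0.0148 by edgeR) and *clec-80* (0.59, adjusted p = 0.0167) were also higher. *clec-82* was not called there (0.16, adjusted p = 0.899 for Y54G2A.8a). Y54G2A.48 had no count in any *icb38* library and 33 counts in all in *ot269*, at least 10.65-fold higher when *icb38* is set to a floor of 3 counts over its libraries, and it had counts in every library of *ot267* and JR667. *clec-83*, *clec-84*, *fbxc-45*, an F-box gene, *samt-1*, Y54G2A.12 and Y54G2A.36 were also higher, by between 0.38 and 0.76 on the log2 scale. Of these, *clec-84* alone was also called higher in *ot267* against JR667 (0.49, adjusted p = 0.0766 by edgeR). *nprt-1*, a nicotinate phosphoribosyltransferase gene of NAD synthesis, was lower, with a log2 fold change of -0.55 ± 0.11 for transcript Y54G2A.17b (adjusted p = 0.00340), and so was Y54G2A.11 (-0.72). In *ot267* against JR667, Y54G2A.11 was lower as well (-1.05, adjusted p = 0.0270 by edgeR) and *nprt-1* was not called (-0.01 for Y54G2A.17b). Leaving out 1 library ended the call of *samt-1* (ot269 replicate 1 or 2, icb38 replicate 1 or 3), Y54G2A.12 (ot269 replicate 2 or any icb38 library), Y54G2A.36 (ot269 replicate 2 or 3, icb38 replicate 2) and Y54G2A.11 (any ot269 library, icb38 replicate 2).

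**Figure D1:**
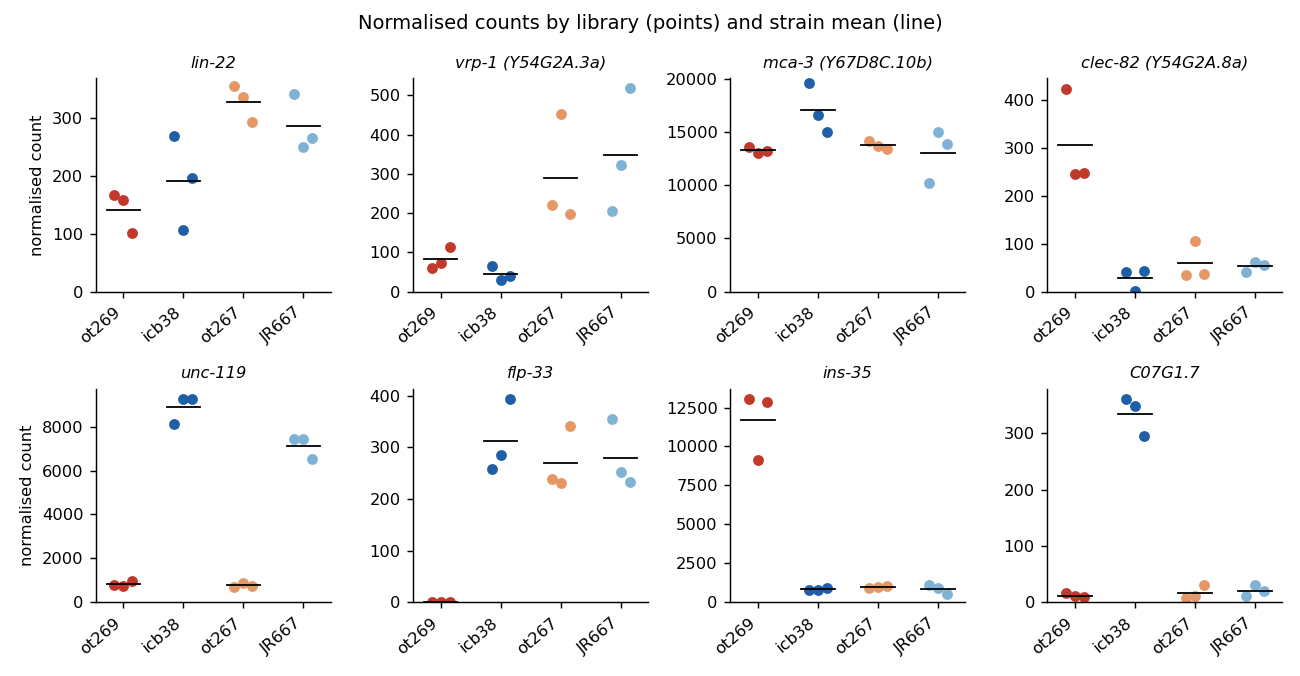
Normalised counts (vertical axis, from 0) of 8 transcripts in the 12 libraries, with a point per library and a line at the mean of each strain. *vrp-1* was low in both upstream alleles, *lin-22* lay below JR667 in every *ot269* library, *clec-82* and *ins-35* were high in the *ot269* libraries, *unc-119* followed the transgene, *flp-33* was near 0 in *ot269* and C07G1.7 was high in *icb38*.

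Across the transcriptome, 3602 of 19696 transcripts (18.3%) differed between the alleles, 1921 higher (9.75%) and 1681 lower (8.53%) in *ot269*. When libraries were scaled by their totals alone, the median of all transcripts moved to 0.11 on the log2 scale and the split was 3052 higher to 889 lower. Most differences were small: the median size among the transcripts called was 0.60 on the log2 scale, and 523 transcripts were higher (2.66%) and 254 lower (1.29%) by at least 2-fold. The count depended on the *ot269* libraries, and fell to 2325, 2141 and 2339 without ot269 replicate 1, 2 and 3.

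Between *ot267* and JR667, which differ in the marker and in *lin-22*, there were fewer differences, 1713 transcripts (8.7%), 808 higher (4.1%) and 905 lower (4.59%). Of the 3602 transcripts that differed between the upstream alleles, 74.2% had the same sign between *ot267* and JR667, against 60.3% of all transcripts tested. For 587 the call was the same in both pairs, which is 16.3% of the calls between the upstream alleles and 34.3% of those between *ot267* and JR667, and in 67 it was opposite. A test of the difference between both differences was passed by 1084 transcripts (5.5%), 761 of them among the 3602. Among the 777 with at least a 2-fold difference, 302 passed that test and 189 had the same call in the strains without an upstream mutation. The differences thus hold transcripts that followed the marker in both pairs of strains and transcripts that did not. The *lin-22* stop codon of *ot267* enters both readings, and its part was not tested.

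**Figure D2:**
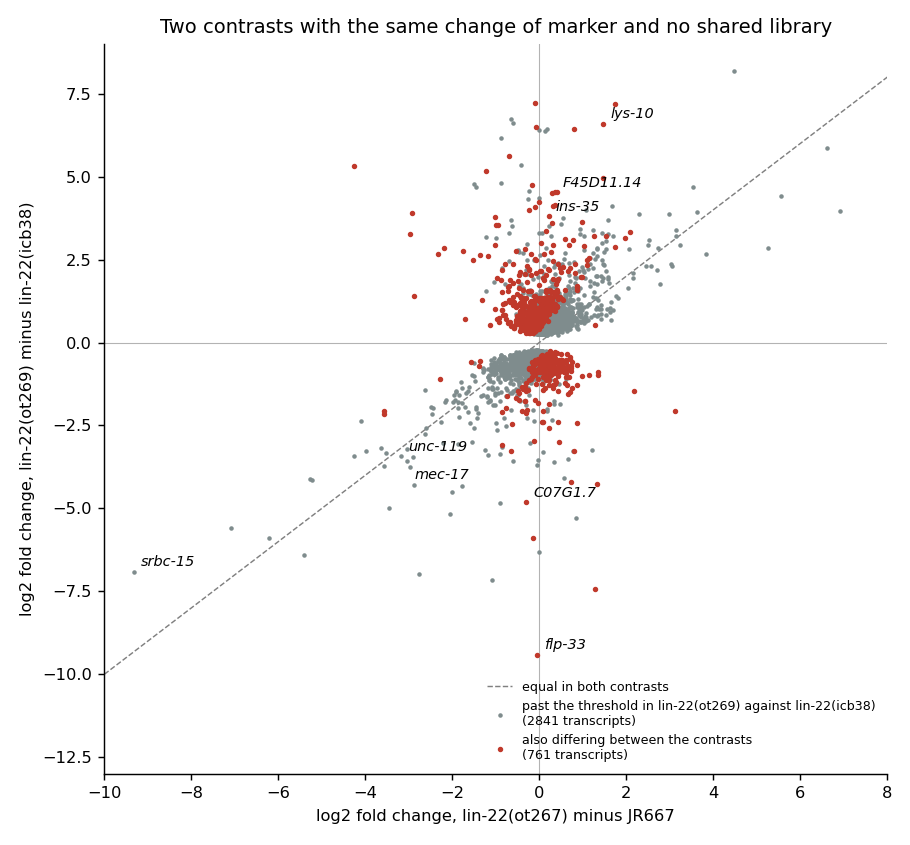
Log2 fold change of *ot269* minus *icb38* (vertical axis) against that of *ot267* minus JR667 (horizontal axis) for the 3602 transcripts that differed between the upstream alleles; the dashed line marks equal values. Red points are the 761 transcripts whose differences themselves differed, among them *flp-33* and *ins-35* near the vertical axis and *lys-10* to its right. *unc-119* and *mec-17* lie near the dashed line, and *srbc-15* lies above it.

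One end of chromosome II stood apart. When the genes were taken in their order along the chromosomes in 626 windows of 25, the first 7 windows of chromosome II, from 2L52.1 to W09B6.4, were the only ones with a median log2 fold change of at least 0.8, and the highest median elsewhere was 0.75. The end at W09B6.4 is the edge of a window, and the last genes, from *sut-1* to W09B6.4, had log2 fold changes of 0.06 to 0.31. Where the shift ends was not determined. The stretch was found by its values, so the following is a description with no test of the stretch. Its 175 tested genes had a median of 0.96 in *ot269* over *icb38*, with quartiles of 0.71 and 1.28. Of these genes 165 had a positive value, 125 were called higher (71.4%), 1 (T27A1.1) was called lower and 148 had no overlap between the libraries of the alleles, where 19.8% of all genes were higher without overlap. Over the 15512 genes placed elsewhere the median was 0.01 and 10.01% of the genes were higher. The next 7 windows of chromosome II had a median of 0.22, with 33 genes higher and 7 lower of 175.

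The *ot269* libraries stood apart from those of the other 3 strains. The median deviation of the stretch from the mean of the 12 libraries was 0.75, 0.74 and 0.75 on the log2 scale in the *ot269* libraries and -0.22, -0.20 and -0.23 in those of *icb38*. In *ot267* it was -0.16, -0.20 and -0.22, and in JR667 -0.26, -0.22 and -0.28. All 9 libraries of the other strains thus lay together, and the median for *ot267* minus JR667 was 0.06. The stretch held 93 of the 604 genes (3.75% of all) whose difference was higher than that between *ot267* and JR667, and 7.45% of the genes higher in *ot269* that could be placed on a chromosome. The stretch includes genes of several functions. *cwn-1*, a Wnt ligand, had 2062, 1822 and 2060.5 normalised counts in *ot269*, against 978, 1138 and 1113 in *icb38*. *sqt-2*, a cuticle collagen that shapes the body, had 140950, 145830 and 126020 in *ot269*, against 53000, 67242 and 49487 in *icb38*. Neither gene had libraries that overlapped between the alleles. *mlt-8* and *mlt-10*, which are needed for moulting, had log2 fold changes of 1.22 ± 0.13 and 1.204 ± 0.22. Some genes in the stretch had larger values than their neighbours: F45D11.14 had 82370, 49578 and 81912 in *ot269* and 2083, 3494 and 3712 in *icb38* (log2 fold change 4.53 ± 0.26), as did F45D11.15 and F45D11.16. These 3 were listed with similar counts and may share reads. The lectin *clec-10* (3.11) and *clec-43* (3.08), named after their values were seen, were also far above the median. *cat-2*, the tyrosine hydroxylase of dopamine synthesis, lies in the stretch and did not differ beyond the spread between libraries (-0.01 ± 0.16, adjusted p = 0.977). Only RNA was analysed here.

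**Figure D3:**
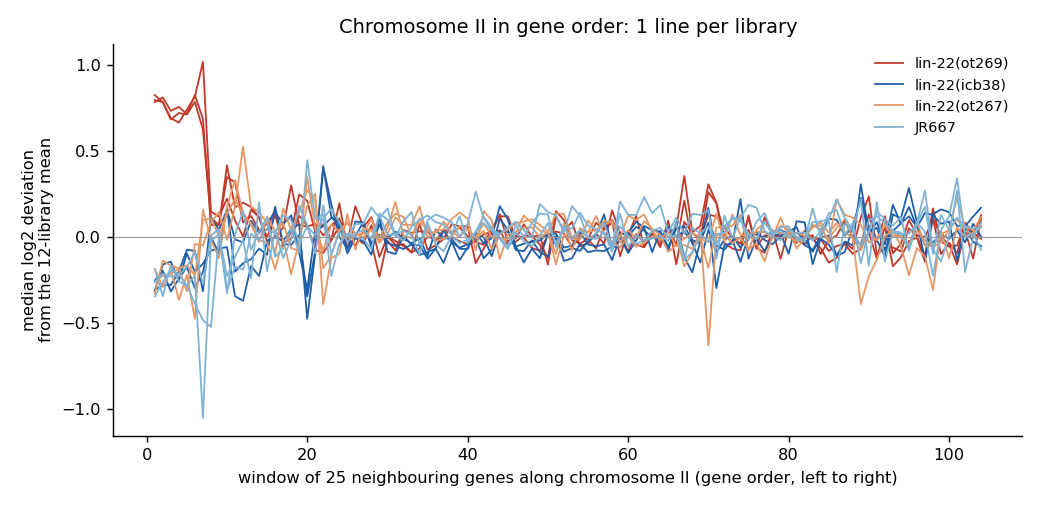
Median log2 deviation from the mean of the 12 libraries (vertical axis) in windows of 25 neighbouring genes along chromosome II (horizontal axis, in gene order), with a line per library. The 3 *ot269* lines lie apart from the other 9 over the first 7 windows, with medians of 0.74 to 0.75 over the stretch, and come closer to them in the windows that follow.

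A group of genes followed the transgene in both pairs of strains. *unc-119*, a lipid-binding chaperone of the nervous system, had 771, 730.1 and 964 normalised counts in *ot269*, against 8129, 9278 and 9240.1 in *icb38*, and 715, 895 and 739 in *ot267*, against 7451, 7433 and 6507 in JR667. The strains with the *unc-119* copy in *wIs51* were high in every library, and the log2 fold changes were -3.43 ± 0.13 (adjusted p = 2.56e-09) and -3.19 (adjusted p = 3.30e-09). *mec-17*, which acetylates alpha-tubulin in touch neurons, had 3334, 2731 and 3533 in *ot269* and 32920, 42470 and 38850 in *icb38*. Its log2 fold change was -3.57 ± 0.15, and -3.03 in *ot267* against JR667. *arf-5*, an ADP-ribosylation factor gene of the same clone as *mec-17*, did not pass the test (-0.26 ± 0.10, adjusted p = 0.113). The collagen gene *col-115* had 3344, 3286 and 2795 in *ot269* and 33841, 37470 and 32156 in *icb38*, with log2 fold changes of -3.46 here and -2.92 in the other pair. For *unc-119*, *mec-17* and *col-115* the difference between the pairs of strains did not pass the test (adjusted p between 0.171 and 0.519).

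Genes on chromosome V, which carries both transgenes, were among the largest of these shared differences. *srbc-15*, a chemoreceptor of the serpentine class BC, had 9.57, 1.93 and 2.96 normalised counts in *ot269*, against 568, 494 and 667 in *icb38*, with log2 fold changes of -6.90, and -9.32 in *ot267* against JR667. *irld-35* and *irld-53*, of the insulin and EGF receptor-like domain family, had log2 fold changes of -5.89 and -4.12. They belong to runs of at least 5 consecutive genes called in the same direction: *srbc-15* opened a run of 9 lower genes with a median of -1.80, and *irld-35* one of 8 with a median of -1.66, against -1.995 and -1.90 in the other pair of strains. Members of such families can share reads with similar copies, so single values are uncertain. Several genes also had a counterpart of similar level in the other of these runs. *clec-209* had means of 2063 in *ot269* and 9166 in *icb38*, and F56A4.2 had 2161 and 8957. The runs that hold *srbc-15* and *irld-35* may thus share reads and may not be independent. A further run of 6 lower genes, from *ugt-9* to *ugt-13*, enzymes that add glucuronic acid to small molecules, had medians of -0.88 and -0.86. Higher in both pairs were the *pud* genes *pud-1.1*, *pud-1.2*, *pud-2.1*, *pud-2.2*, *pud-3* and *pud-4*, which encode proteins known to be abundant when insulin signalling is reduced. In all 6 genes the difference was also larger than that of the other pair (adjusted p 0.0373 to 0.0639 by edgeR). *pud-1.1* and *pud-1.2* were listed with similar counts, as were *pud-2.1* and *pud-2.2*, and may share reads, so these are not 6 separate results. *pud-3*, named after its values were seen, had 23140, 16414 and 20716 normalised counts in *ot269* and 2497, 1426 and 2787 in *icb38*, and its log2 fold changes were 3.17 ± 0.24 and 1.97. A run of 5 genes on chromosome IV, from C55C3.7 to C55C3.1, had medians of 3.88 and 2.97, and one of 5 on chromosome X, from K09C4.5 to F11D5.7, had 1.92 and 1.49.

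The other genes of the transgenes, *dat-1* and *rol-6*, did not follow them in both pairs. Between *ot267* and JR667 both were higher in the strain with *vtIs1*, *dat-1* by edgeR and *rol-6* by DESeq2 but not by edgeR. Between the upstream alleles both were lower in the strain with *vtIs1*. *dat-1*, the dopamine transporter whose promoter drives *vtIs1*, had 788, 693 and 769 normalised counts in *ot269*, against 1359, 1215 and 1553 in *icb38*, a log2 fold change of -0.88 ± 0.12 (adjusted p = 2.78e-04), and was 0.46 in *ot267* against JR667 (adjusted p = 0.0427). The pairs differed from each other (adjusted p = 5.58e-04). *rol-6*, the collagen gene of the dominant roller allele, had 41104, 40647 and 37843 in *ot269* and 51343, 76451 and 56692 in *icb38* (log2 fold change -0.63 ± 0.18, adjusted p = 0.0310), and 0.45 in the other pair, also a difference between the pairs (adjusted p = 0.0283). Its call was lost without ot269 replicate 3 or icb38 replicate 2 (adjusted p up to 0.149).

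Among the genes that did not follow the marker, the lowest in *ot269* was *flp-33*, which encodes FMRFamide-like neuropeptides. It had 1 count in all 3 *ot269* libraries and 908 in the 3 *icb38* libraries. Per library the normalised counts were 0, 0 and 0.988 in *ot269*, against 258, 285 and 393 in *icb38*, 238, 232 and 341 in *ot267* and 356, 252 and 233 in JR667. The level in *ot269* was lower by a ratio of 938, with a 95% counting interval of 168 to 37100 that covers counting error only. The *flp-33* transcript was thus nearly absent from 1 strain and at a similar level in the other 3. Genes of the same clone were not low: *clec-15* (T07D10.4) had a log2 fold change of 2.37 ± 0.40, T07D10.3 0.94 ± 0.45 and *ntr-1*, a nematocin receptor, 1.19 ± 0.57, of which only *clec-15* passed the test.

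The largest rises included a lysozyme, lectins and an insulin-like peptide. *lys-10*, a lysozyme gene, had 794, 453 and 685 normalised counts in *ot269*, against 12.67, 2.38 and 3.89 in *icb38* (log2 fold change 6.60 ± 0.57, adjusted p = 3.06e-06), and 16.5, 62.9 and 13.9 in *ot267*. *ins-35*, which encodes an insulin-like peptide, had 13055, 9137 and 12842 in *ot269* and 812, 803 and 894 in *icb38*, and lay between 555 and 1103 in the 6 libraries of the other strains. Its log2 fold change was 3.80 ± 0.21 (adjusted p = 3.97e-08). *dct-19*, a gene placed downstream of the DAF-16 transcription factor, had 737, 496 and 595 in *ot269*, against 15.6, 32.2 and 48.7 in *icb38*. In *ot267* and JR667 it had at most 18.5 normalised counts, so that only *ot269* was high. *clec-61* had 833, 647 and 719 in *ot269*, against 25.3, 40.5 and 58.4 in *icb38*. F58E6.4 had 416, 286 and 568 in *ot269*, against 1.95, 19.1 and 5.84 in *icb38*. Lack of overlap between the libraries of the alleles was a condition for naming the largest rises, so it is no separate result for these genes. The log2 fold changes of *dct-19*, *clec-61* and F58E6.4 were 4.24 ± 0.38, 4.14 ± 0.31 and 5.62 ± 0.65, and for each the difference exceeded that between *ot267* and JR667 (adjusted p of 0.00251, 1.27e-04 and 0.0118). *ppt-1*, a palmitoyl-protein thioesterase of the lysosome, ZK218.5, F44A2.7 and C55C3.3 were higher by 3.62, 4.97, 3.69 and 3.88 on the log2 scale, of which C55C3.3 was also higher in *ot267* than in JR667 (2.97).

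As a group, C-type lectins, secreted carbohydrate-binding proteins of which many respond to pathogens in the intestine, were higher in *ot269*. Of 147 tested, 45 were higher and 9 lower, that is 30.6% and 6.12%, and their median was 0.34 where that of all genes was 0.01. Only 4 of the tested lectins lay in the stretch of chromosome II, and 43 of those called higher lay outside it. Lysozymes and antimicrobial peptides went both ways, with 20 higher and 18 lower of 75. Of the 20 that were higher, 6 were *lys* and 3 *ilys* genes, which encode lysozymes, and 7 were *spp* genes, which encode saposin-like proteins. Besides *lys-10*, the invertebrate-type lysozyme *ilys-3* had 198, 149 and 220.3 normalised counts in *ot269*, against 14.6, 10.7 and 22.4 in *icb38* (log2 fold change 3.55 ± 0.45). *ilys-2* had 211 counts in all in *ot269* and 2 in *icb38*, a ratio of 102 with a counting interval of 27.9 to 849. Of the 18 that were lower, 14 were *fipr* genes, which encode short secreted peptides of fungus-induced families, among them *fipr-8* (-1.58 ± 0.33) and *fipr-24* (-1.501 ± 0.40). The peptide gene *nlp-28* was lower as well (-1.27 ± 0.26). F-box genes, which recruit proteins for ubiquitination, had 32 higher and 6 lower of 212, 11 of the tested genes being in the stretch of chromosome II. That is 15.1% and 2.83%, against 10.5% and 8.44% of all genes. Of the 201 F-box genes outside the stretch 27 were higher, where 10.01% of the genes placed elsewhere were. Without ot269 replicate 1 the number of higher F-box genes was 20.

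**Figure D4:**
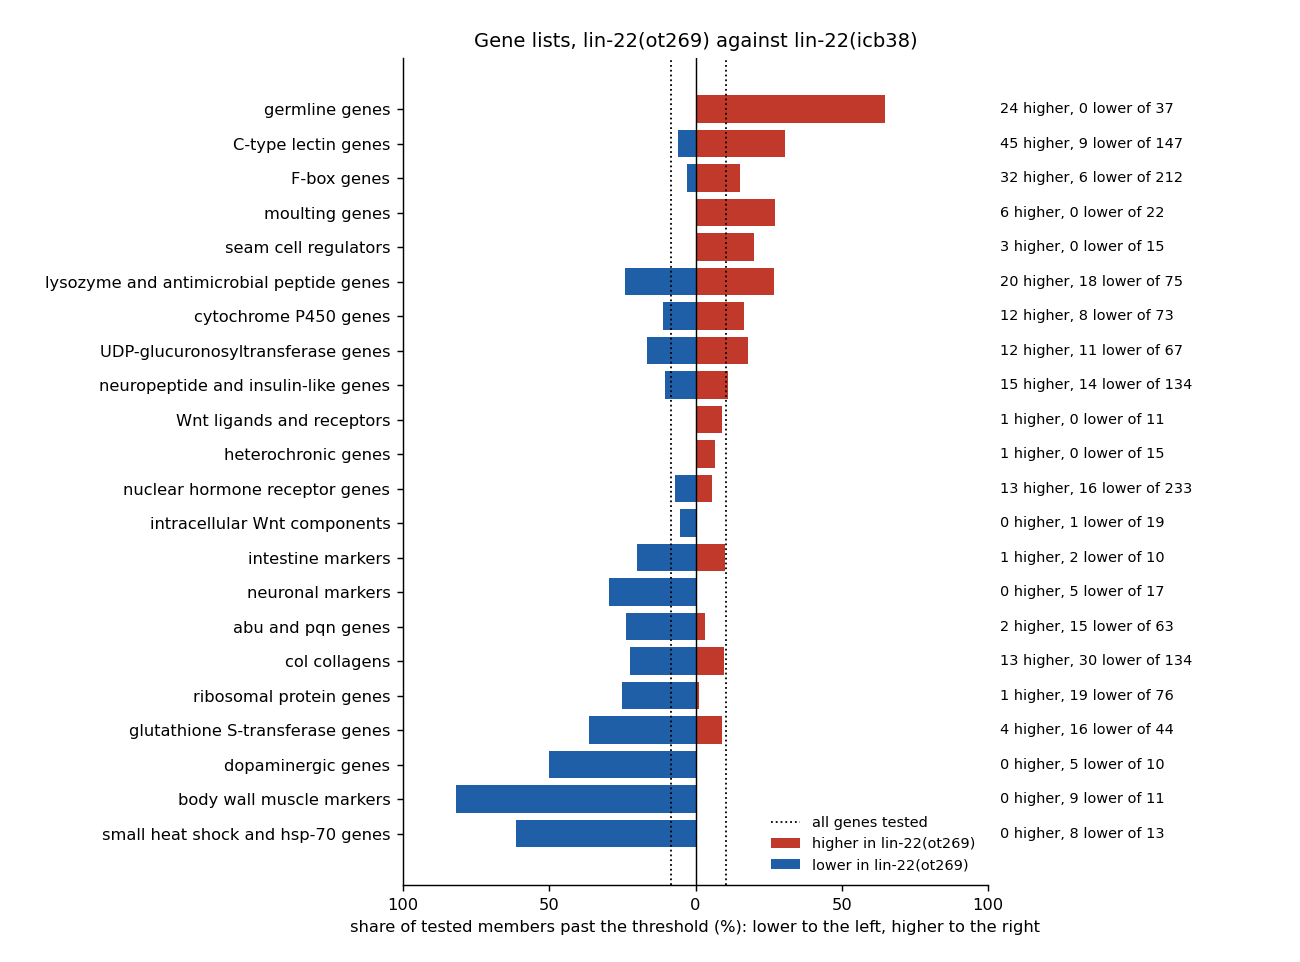
Share of the tested members of the gene lists shown (horizontal axis, in %) that were higher (red, to the right) or lower (blue, to the left) in *ot269* than in *icb38*, with the counts at the right; the dotted lines mark 10.5% higher and 8.44% lower over all genes tested. Among the lists shown, germline genes (24 of 37 higher) and muscle markers (9 of 11 lower) lay farthest from these lines in either direction.

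Other genes were high in *icb38* alone. C07G1.7, a gene known here by its identifier only, had 15.9, 10.61 and 8.89 normalised counts in *ot269*, against 361, 348 and 296 in *icb38*, 8.24, 10.8 and 31.3 in *ot267* and 11.08, 30.7 and 19.3 in JR667. Its log2 fold change was -4.82 ± 0.46 (adjusted p = 8.34e-06), and the pairs of strains differed (adjusted p = 0.00136). The lectin *clec-3* had 60.6, 86.8 and 57.3 in *ot269* and 284, 449 and 339.6 in *icb38*, the reverse of most of its family. On clone F57G4, neighbouring genes differed in this respect: F57G4.5, F57G4.6 and F57G4.9, named after their values were seen, had log2 fold changes of -2.59, -2.99 and -2.96, and of -0.12 to 0.45 in the other pair, whereas the F-box gene *fbxa-192* (F57G4.8) had -3.72 and -3.58.

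Glutathione S-transferases, which conjugate reactive compounds to glutathione, were lower in *ot269* in 16 and higher in 4 of 44 genes, with a median of -0.35. *gst-4*, a common reporter of the oxidative stress response, had 2059.5, 1929.9 and 2299 normalised counts in *ot269*, against 8678, 7308 and 6291 in *icb38* (log2 fold change -1.82 ± 0.14, adjusted p = 9.63e-07). In *ot267* and JR667 it lay between 1404 and 1932, so that *icb38* was the strain that stood apart. *gst-38* had 615, 663 and 784 in *ot269*, against 4432, 2884 and 4006 in *icb38*, and *gst-27* went the other way (1.02 ± 0.10). The summed level of the list was between 85900 and 101700 in *ot269* and between 119700 and 130300 in *icb38*, without overlap.

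Small heat shock proteins and *hsp-70*, chaperones induced by stress, were lower in 8 and higher in 0 of 13 genes, with or without any 1 of the 6 libraries. *hsp-16.41* had 115, 85.8 and 113 normalised counts in *ot269*, against 1227, 359.7 and 1018 in *icb38* (log2 fold change -3.06 ± 0.54, adjusted p = 0.00186), and 2917, 726 and 699.8 in JR667. *hsp-70* had 137, 169.7 and 286 in *ot269* and 1322, 656 and 1224 in *icb38*. The *icb38* and JR667 libraries spread widely, and between the pairs of strains no member differed by edgeR, DESeq2 or an unadjusted p under 0.05, 5 being also lower in *ot267* than in JR667, where 4.72% of all genes were lower. F44E5.4 and F44E5.5, a pair of genes of the heat shock 70 family listed with similar counts, were also lower, with log2 fold changes of -1.65 ± 0.34 and -1.60 ± 0.34. *icl-1*, the enzyme of the glyoxylate cycle, had 25388, 23060 and 21675 in *ot269*, against 44099, 71434 and 29354 in *icb38* (log2 fold change -1.05 ± 0.27), and did not pass the test without icb38 replicate 2 (adjusted p = 0.104).

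Genes that control seam cells were mostly higher in *ot269*, by small amounts. The list of 15 had 12 positive values and a median of 0.33, where that of all genes was 0.01. It summed to between 18280 and 19280 in *ot269* and between 15840 and 16950 in *icb38*. Higher calls made up 20% of the list, against 10.5% of all genes. Of 15 seam cell regulators 3 were higher and none lower, and all 3 differences were small: *nhr-25*, a nuclear receptor of epidermal cell fate, had 1927, 1875 and 1745 normalised counts in *ot269*, against 1309, 1340 and 1359 in *icb38* (log2 fold change 0.47 ± 0.12, adjusted p = 0.0173). *eff-1*, which fuses epidermal cells, and *nhr-73* were 0.39 ± 0.13 and 0.64 ± 0.23. Without icb38 replicate 1 or any of the ot269 libraries 1 of the 3 passed. The GATA factors *egl-18* (-0.17 ± 0.11) and *elt-1* (0.25 ± 0.12), the Engrailed homologue *ceh-16* (0.41 ± 0.38) and the Hox gene *mab-5* (0.33 ± 0.13) did not pass the test. Among heterochronic genes, which time the larval divisions, *lin-46* alone was higher of 15 (0.39 ± 0.14, a call that leaving out any icb38 library or ot269 replicate 1 or 3 ended, with adjusted p up to 0.257), and *lin-41* (-0.05 ± 0.17 for C12C8.3a) and *hbl-1* (0.19 ± 0.16 for F13D11.2a) did not pass.

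Calls among Wnt genes came at shares below those of all genes. Of 11 Wnt ligands and receptors only *cwn-1* was higher (0.88 ± 0.14, adjusted p = 8.70e-04), and it is the member that lies in the stretch of chromosome II. That is 9.09% of the list, against 10.5% of all genes. The receptor *lin-17*, a Frizzled, had 938, 1035 and 999.6 normalised counts for Y71F9B.5a in *ot269*, against 981, 1009 and 959 in *icb38*, with overlapping libraries. The log2 fold change was 0.01 ± 0.12. Of 19 genes listed as intracellular Wnt components, *fmi-1* was lower (-0.43 ± 0.14, adjusted p = 0.0488), a call lost without ot269 replicate 2 or 3 or icb38 replicate 2 or 3 (adjusted p up to 0.177). That is 5.26% of the list, against 8.44% of all genes. *fmi-1* encodes the Flamingo cadherin of planar polarity, which is itself a membrane protein.

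Dopaminergic genes were lower in *ot269*, in 50% of the list against 8.44% of all genes. Proneural genes were called at near the share of all genes, 9.09% in each direction against 10.5% higher and 8.44% lower. Of 11 proneural genes, *lin-32* was lower and *hlh-6*, a gland cell regulator, was higher (0.89 ± 0.30, a call lost without ot269 replicate 1 or 3 or icb38 replicate 1 or 2, with adjusted p up to 0.221). *lin-32*, an Atonal-type proneural gene required for the postdeirid, had 36.2, 12.5 and 25.7 normalised counts in *ot269*, against 59.5, 72.7 and 139 in *icb38*, and 36.1, 21.6 and 5.79 in *ot267*, against 24.9, 13.4 and 7.36 in JR667. The libraries of the alleles did not overlap, and the log2 fold change of -1.87 ± 0.62 passed the test (adjusted p = 0.0653) but not without ot269 replicate 2 or 3 or icb38 replicate 2 or 3 (adjusted p up to 0.268). The Achaete-Scute type gene *hlh-14* had 13.8, 19.3 and 11.9 in *ot269*, against 21.4, 47.6 and 34.1 in *icb38*, and did not pass the test (log2 fold change -1.19 ± 0.62, adjusted p = 0.245). Its libraries did not overlap either, and its counts were low in all 6. Lack of overlap was frequent, as 19.8% of all genes were higher in *ot269* without overlap. Of 10 dopaminergic genes, 5 were lower in *ot269* and none higher, and 4 were lower against the difference of the other pair, where 2.12% of all genes were. In *ot267* against JR667, 2 of the 10 were themselves higher, where 4.2% of all genes were, which enters that comparison. The count of genes lower in *ot269* was 2 without ot269 replicate 2 or icb38 replicate 2 and 3 without ot269 replicate 1 or 3 or icb38 replicate 3. *cat-4*, the GTP cyclohydrolase that makes the cofactor of dopamine and serotonin synthesis, had 2214, 2112 and 2681 normalised counts in *ot269*, against 5486, 3860.5 and 5066 in *icb38* (log2 fold change -1.04 ± 0.18, adjusted p = 0.00147). *ast-1*, an ETS factor that specifies dopaminergic neurons, had 540.1, 545 and 526 in *ot269*, against 672, 943 and 830.0 in *icb38*. The channel gene *trp-4*, the homeobox gene *ceh-43* and the decarboxylase gene *bas-1* had log2 fold changes of -0.56, -0.44 and -0.34. The list summed to between 10210 and 11330 in *ot269*, between 14450 and 15650 in *icb38*, between 11380 and 12180 in *ot267* and between 10680 and 12530 in JR667, so that *icb38* lay above the other 3 strains.

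In RNA of whole larvae, fewer cells of a type and less RNA per cell cannot be told apart, and several lists of cell type markers differed between the alleles. Over all genes 10.5% were higher and 8.44% lower. For every list described as having no member higher or lower, save the desaturases below, edgeR, DESeq2 and an unadjusted p under 0.05 each gave a count of 0 in that direction in the fit of all 12 libraries. In the fit of the 6 libraries compared, 2 seam cell regulators and 1 heterochronic gene were lower. Neuronal markers, which bear on the dopaminergic list, were lower in 5 of 17 genes and higher in none, and summed to between 66550 and 71780 in *ot269* and between 78300 and 86350 in *icb38*; their part in the difference of the dopaminergic genes was not tested. The count of neuronal genes rested on single libraries: it was 0 without ot269 replicate 2 or icb38 replicate 2, 1 without ot269 replicate 3, 2 without ot269 replicate 1 and 3 without icb38 replicate 1. With libraries scaled by totals alone it was also 0. Body wall muscle markers were lower in 9 of 11 genes. *myo-3*, a muscle myosin, had 48183, 47502 and 50577 normalised counts in *ot269*, against 113650, 72163 and 69454 in *icb38*, where replicate 1 was the highest (log2 fold change -0.80 ± 0.17, adjusted p = 0.00694). Without icb38 replicate 1, ot269 replicate 2 or ot269 replicate 3 the count was 5, and without ot269 replicate 1 it was 6. The muscle list summed to between 904900 and 923600 in *ot269* and between 1129000 and 1666000 in *icb38*. Among pharyngeal markers *myo-2*, *phat-2* and *tnc-2* were lower and none higher of 8, and among 10 intestinal markers 1 was higher and 2 lower, with 0 lower without icb38 replicate 1 or any ot269 library and 2 higher without icb38 replicate 1. The epidermal markers *wrt-2* (0.64 ± 0.17) and *che-14* (0.54 ± 0.12) were higher and none of 9 was lower.

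Germline genes were the list with the largest share of higher members. Of 37 genes 24 were higher in *ot269* (64.9%) and none lower, with a median of 0.61. Among them were genes of the synaptonemal complex and chromosome axis, which pair chromosomes in meiosis: *him-3* had 883, 1258 and 1084 normalised counts in *ot269*, against 530.2, 275 and 414 in *icb38* (log2 fold change 1.40 ± 0.26, adjusted p = 0.00268). *htp-1* (1.36) and *htp-2* (1.37) were similar. *fog-3*, which directs germ cells to become sperm, had 871, 1199 and 1030.3 in *ot269*, against 454, 374 and 384 in *icb38*. The list summed to between 84390 and 97310 in *ot269*, between 50270 and 75690 in *icb38*, between 102900 and 112000 in *ot267* and between 65170 and 115600 in JR667, so that the *icb38* libraries were the lowest but overlapped with JR667. Between *ot267* and JR667, where 4.2% of all genes were higher, no germline gene was called by edgeR or DESeq2 and 1 had an unadjusted p under 0.05, and 4 differed between the pairs of strains. The number of higher genes was 13 without icb38 replicate 2, 11 without ot269 replicate 2 and 16 without ot269 replicate 3, and between 17 and 28 without each of the others. Genes of sperm had 3 higher (1 without icb38 replicate 1 or ot269 replicate 2) and 2 lower of 50. That is 6% and 4%, below the 10.5% and 8.44% of all genes. No yolk protein gene of 6 was called in either direction by edgeR or DESeq2 or had an unadjusted p under 0.05 in the fit of all 12 libraries. In the fit of the 6 libraries compared, 1 yolk protein gene was lower.

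**Figure D5:**
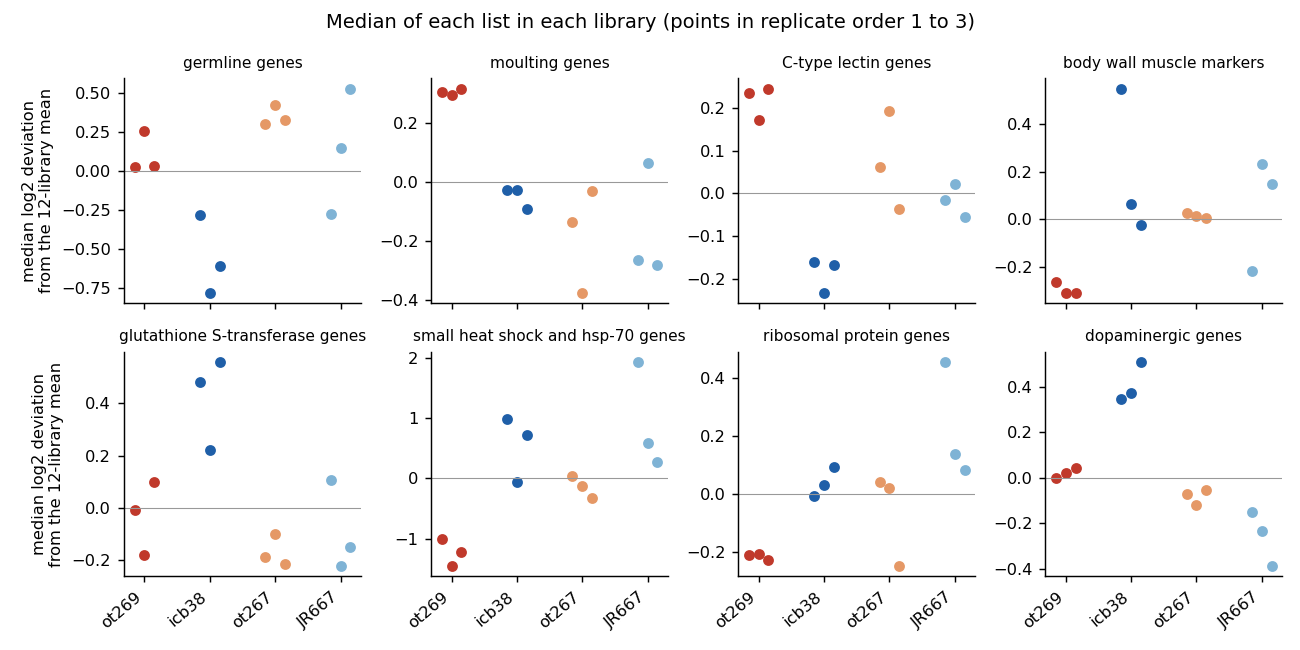
Median log2 deviation of the members of 8 gene lists from the mean of the 12 libraries (vertical axes, each with its own range), with a point per library in the order of the replicates. The *icb38* points lie lowest for the germline list and highest for the glutathione S-transferases and the dopaminergic genes, and the *ot269* points lie lowest for the muscle markers and the heat shock genes.

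The cuticle is rebuilt at each moult under the control of the epidermis. Of 22 moulting genes 6 were higher in *ot269* and none lower, 2 of the 22 being in the stretch of chromosome II. Outside it were *nas-37*, a metalloprotease that loosens the old cuticle (11491, 11745 and 11136 normalised counts in *ot269*, against 7234, 7417 and 6612 in *icb38*), and *nekl-2*, a kinase of the NIMA family (0.61 ± 0.12). The 6 furrow collagens, which mark the annuli of the cuticle, had positive values of 0.13 to 0.30 but in the fit of all 12 libraries none passed the test by edgeR, DESeq2 or an unadjusted p under 0.05; in the fit of the 6 libraries compared, 3 were higher. In *ot267* against JR667 4 of them were lower, and for 5 the difference between the pairs was above 0, as it was for 3.75% of all genes. Of 12 other collagens that set body shape, 4 were higher and 1 lower, with 2 higher without ot269 replicate 2 or icb38 replicate 2 or 3 and 4 lower without icb38 replicate 3. *sqt-1* had 116490, 118830 and 96242 in *ot269*, against 64542, 76674 and 55096 in *icb38*, and *bli-2*, a collagen needed to keep the adult cuticle layers together, had 303, 466 and 314 in *ot269*, against 177, 90.5 and 137 in *icb38*, where JR667 had 1659, 3666 and 6875; the call of *bli-2* was lost without ot269 replicate 2 or icb38 replicate 2 or 3 (adjusted p up to 0.169). Of 134 *col* genes 13 were higher and 30 lower, with a median of -0.19. *col-110* had 559, 622 and 618 normalised counts in *ot269*, against 134, 96.5 and 51.6 in *icb38*, and *col-58* had 2094, 2225 and 2058 in *ot269*, against 5255, 5014 and 5840.2 in *icb38*. The number of lower *col* genes was 17 without ot269 replicate 1 or icb38 replicate 1 and 18 without ot269 replicate 3, and the number of higher ones was 8 without ot269 replicate 1. The *abu* and *pqn* genes, which encode glutamine- and asparagine-rich proteins of which many line the pharynx, were lower in 15 and higher in 2 of 63 (1 without ot269 replicate 1 or 2 or any icb38 library), with 6, 9 and 10 lower without ot269 replicate 3, icb38 replicate 1 and ot269 replicate 1. Hedgehog-related genes had 4 higher and 2 lower of 48, with 14 higher in the fit of the 6 libraries compared, 2 higher without icb38 replicate 1 or ot269 replicate 1 or 2 and 0 lower without icb38 replicate 2 or ot269 replicate 1 or 3. Patched-related genes had 5 higher and 1 lower of 27, with 3 higher without icb38 replicate 1 or 3 or ot269 replicate 1 or 2, and 0 lower without either of these ot269 libraries. The *nas* metalloproteases had 4 higher and 3 lower of 29, with 1 lower without replicate 2 or 3 of either strain.

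Enzymes that modify foreign and fatty compounds went both ways, where 10.5% of all genes were higher and 8.44% lower. Cytochrome P450 genes had 12 higher and 8 lower of 73, with 4 lower without ot269 replicate 1 and 5 without ot269 replicate 2 or icb38 replicate 2 or 3. *cyp-35A1* had 285, 213 and 298 normalised counts in *ot269* and 105, 106 and 104.1 in *icb38*, and *cyp-13B1* had 387, 317 and 467 in *ot269* and 702, 794 and 634 in *icb38*, opposite in direction. Glucuronosyltransferases had 12 higher and 11 lower (6 without ot269 replicate 2) of 67, with *ugt-53* the largest rise (2.03 ± 0.24) and *ugt-13* the largest fall (-1.38 ± 0.14). The desaturases *fat-5* and *fat-7*, which make monounsaturated fatty acids, were higher by 1.64 ± 0.28 and 0.91 ± 0.19, and of that list of 16 no member was called lower by edgeR, against 2 by DESeq2 and 2 at an unadjusted p under 0.05. Nuclear hormone receptors had 13 higher and 16 lower of 233, a share below that of all genes in both directions. Without single libraries there were 4 higher (ot269 replicate 1), 6 (ot269 replicate 3 or icb38 replicate 1), 7 (icb38 replicate 2) and 8 (icb38 replicate 3), and 5 lower (ot269 replicate 2), 8 (ot269 replicate 1) and 9 (ot269 replicate 3 or icb38 replicate 2). Neuropeptide and insulin-like genes other than *flp-33* and *ins-35* included *ins-7*, with 163, 182 and 198 in *ot269*, against 71.1, 31.0 and 25.3 in *icb38*, and *nlp-71*, with 129.7, 104.2 and 128 in *ot269*, against 288, 442 and 503 in *icb38*. The list as a whole had 15 higher and 14 lower of 134, near the share of all genes. Ribosomal protein genes were lower in 19 of 76 and higher in 1, with a median of -0.27. With libraries scaled by totals alone 5 were lower. The count was 3, 1 and 4 without ot269 replicate 1, 2 and 3 and 7 without icb38 replicate 2. Histone genes had 2 higher and 4 lower of 64, with 0 to 2 lower without each library other than icb38 replicate 3 and 1 higher without each other than ot269 replicate 1. Their shares of 3.1% and 6.25% lay below those of all genes.

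Repeat entries were listed beside the genes, and of 126 tested 6 were higher and 9 lower. Over all transcripts 9.75% were higher and 8.53% lower. The Tc1 transposon had 202, 279.7 and 298 normalised counts in *ot269*, against 2169.5, 2559.8 and 2472 in *icb38*, and 256, 252 and 159.9 in *ot267*, against 1281, 2279 and 1943 in JR667. It followed the marker background, with log2 fold changes of -3.20 ± 0.22 and -3.04. The repeat family TURMOIL2 had 518, 451 and 397 in *ot269*, against 2348, 2342 and 2537 in *icb38*, and between 519 and 652 in the other 6 libraries. It was thus high in *icb38* alone (log2 fold change -2.40 ± 0.13, adjusted p = 3.01e-08, and 3.46e-06 for the difference between the pairs). HAT4_CE was higher in *ot269* (0.99 ± 0.22).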

How the data were processed

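RNA of whole L3 larvae was sequenced as stranded libraries of polyadenylated RNA, 3 per strain. The authors used Bowtie2 for alignment, bedtools for counts per transcript and DESeq for normalisation and testing; the versions, the genome build, the annotation and the strand setting of the counting are not given in the sources used here, so overlapping and antisense genes, isoforms and near-identical genes can share reads. The deposited tables hold raw counts per transcript and repeat entry, which were used here, and a normalised signal in which the authors set counts of 0 to 1 and divided by a size factor per library, which was not used for tests. Of 23953 entries 848 had no count in any library.

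All 12 libraries were fitted with edgeR 4.0.16 in R 4.3.3 (quasi-likelihood test, a coefficient per strain, median-of-ratios size factors, filterByExpr with a count minimum of 10), with Benjamini-Hochberg adjustment over 19696 entries and a threshold of 0.1. Contrasts were *ot269* minus *icb38*, *ot267* minus JR667, and the difference between them. Standard errors were derived from the F statistic and are approximate. The procedure was tested on simulated data with known changes. Normalised counts were divided by the same size factors. In gene lists and windows each gene was represented by its transcript with the highest mean. Windows took 25 tested genes in the order of a RefSeq annotation, used for order and names only; runs needed at least 5 consecutive calls. Named genes were *lin-22*, its neighbours called on clone Y54G2A, marker genes and candidate regulators, the 12 largest changes each way without overlap between libraries and with a mean of at least 100, the 5 most abundant genes each way with a change of at least 2-fold, up to 4 members called each way per list, and 3 repeats each way; other genes named were chosen after their values were seen. Members and lists were chosen with earlier results of these data known. An exact permutation test on 3 libraries per strain has a lowest possible p of 0.1, so none was run. Alternatives were DESeq2 1.42.0, other size factors, filters and thresholds, the 6 libraries alone, a replicate block, and leaving out each library.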

Additional observations from a re-analysis of the deposited data

Results flagged for a closer look

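The following differences between *ot269* and *icb38* were themselves different from those between *ot267* and JR667, by a test of the difference in edgeR (Benjamini-Hochberg adjusted p at or under 0.1). Across all transcripts 1084 passed, and the values given here are the differences between both log2 fold changes.

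Below 0, that is lower in *ot269* against *icb38* than in *ot267* against JR667, were *flp-33* (-9.36), C07G1.7 (-4.51), *dat-1* (-1.33), *rol-6* (-1.08) and *nprt-1* (-0.54, Y54G2A.17b). For *dat-1* and *rol-6* the pairs of strains had opposite signs.

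Above 0 on clone Y54G2A, which holds *lin-22*, were *clec-80* (0.99), Y54G2A.9 (1.51), *clec-82* (3.19 for Y54G2A.8a and 3.80 for Y54G2A.8b) and Y54G2A.48 (6.56, a fitted value that depends on the prior count because *icb38* had no count). Above 0 in the chromosome II stretch were F45D11.14 (4.17), F45D11.15 (4.21) and F45D11.16 (4.14), which were listed with similar counts and may share reads. The others were the insulin-like peptide gene *ins-35* (3.59), the lectin *clec-61* (3.78), *dct-19* (4.24), *ppt-1* (2.65), the lysozyme *lys-10* (5.14), ZK218.5 (3.51) and F58E6.4 (6.31).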

How the results depend on the processing

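Of 224 named transcripts 207 were called, 133 of them also under every alternative and without each of the 6 libraries, and no called log2 fold change changed sign, whereas values near 0 that were not called, such as those of *lin-41* and *lin-17*, did. Between *ot269* and *icb38* 3602 transcripts were called, 3630 with TMM scaling, 3941 with library totals, 4347 with DESeq2, 2457 at a threshold of 0.05, 4931 with the 6 libraries alone, and 2141 to 4633 with 1 of the 12 libraries left out. Between *ot267* and JR667 the 1713 calls became 1065 at a threshold of 0.05, 817 with their own 6 libraries alone, 2542 with DESeq2 and 854 (without ot267 replicate 3) to 1789 with 1 library left out. The difference between the pairs had 1084 calls, 625 at a threshold of 0.05, 1769 with DESeq2 and 610 (without ot269 replicate 1) to 1314 with 1 library left out, also low without ot269 replicate 2 (718) or 3 (618) and icb38 replicate 3 (666). The cause of these changes was not tested.

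Same-numbered libraries did not deviate together: the correlations of their deviations were -0.07, -0.05 and 0.01 between *ot269* and *icb38* and 0.02, -0.04 and -0.04 between *ot267* and JR667. With a replicate block the counts were 3054, 1315 and 750 for the 3 contrasts. Without the stretch of chromosome II 3441 transcripts were called (1761 higher, 1680 lower) and the difference between the pairs had 963 calls, an alternative chosen after seeing the data. Genes with few counts in both strains are limited by depth.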
